A study of Homo sapiens with 5 samples.

Results

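Rb occupancy was examined at the 8 genes of the AP-1 transcription factor family, FOS, FOSB, FOSL1, FOSL2, JUN, JUNB, JUND and ATF3, which are 8 of 19970 protein-coding genes on the autosomes and the X chromosome. The genes were taken by name as a family, with earlier results of these data known, and their signal set no threshold. For each gene, peaks that overlapped 2000 bp upstream to 500 bp downstream of any of its GENCODE transcription start sites (TSSs) were taken as promoter peaks, and other peaks were assigned to the gene if its TSS was the nearest of any protein-coding gene within 100 kb. These steps gave 1 and 3 peaks in DMSO replicates 1 and 2, of 1438 and 2582 in the lists, and 21 and 17 in abemaciclib replicates 1 and 2, of 13960 and 12234.

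The lists came from CUT&RUN, in which an antibody recruits a DNA-cutting enzyme to its chromatin target and the short fragments set free are sequenced. Parental ZR-75-1 cells, an established oestrogen receptor-positive breast cancer line, received either DMSO or abemaciclib, an inhibitor of CDK4 and CDK6, at 500 nM for 4 days. Each treatment had 2 Rb libraries from separate cultures, and 1 IgG2a library from DMSO-treated cells served as the negative control. The cells were a single line with no added gene or deletion in any group, and IgG2a libraries from abemaciclib-treated cells were not analysed here. Peak lists of Rb hold no expression, so the line could not be checked against marker transcripts.

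AP-1 is a dimer of basic leucine zipper proteins. JUN proteins pair with themselves or with FOS proteins, and FOS proteins need a JUN partner to bind the TPA response element (TRE), TGAGTCA or TGACTCA, whereas dimers with ATF proteins prefer the cAMP response element (CRE), TGACGTCA. Most AP-1 genes are immediate early genes, which growth factors and stress switch on within minutes through mitogen-activated protein kinases, in part through serum response factor bound to the CArG box of a serum response element. Rb, the tumour suppressor that CDK4 and CDK6 phosphorylate, holds E2F factors in check when it is hypophosphorylated, and FOS is among the genes whose promoters were early reported to respond to it.

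The sequences around the highest signal at these promoters showed which elements lay near it. The windows below surround the summit of the stronger abemaciclib peak in 7 regions. They were picked as examples after their values and motifs were seen: 6 for a CArG box, a CRE or an E2F pattern near the summit, with the window stretched to take in the CArG box or CRE, and that of ATF3 for its coverage, the highest among regions with no DMSO peak. Windows of other regions are not shown, and some of those regions also held E2F patterns farther from the summit. The printed windows were read 5′ to 3′ on the strand of the gene from GRCh38. Capitals mark an E2F pattern (either TTCCCGC or TTGGCGC, and also the variants TTCGCGC with a central CG and TTGCCGC, on either strand), a CRE, a CArG box or a CCAAT box.
FOS, distal promoter region, chr14:75277403-75277503, plus strand: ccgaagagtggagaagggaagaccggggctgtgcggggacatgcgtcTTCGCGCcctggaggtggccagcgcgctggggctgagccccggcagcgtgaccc
FOS, proximal promoter region, chr14:75278504-75278711, plus strand: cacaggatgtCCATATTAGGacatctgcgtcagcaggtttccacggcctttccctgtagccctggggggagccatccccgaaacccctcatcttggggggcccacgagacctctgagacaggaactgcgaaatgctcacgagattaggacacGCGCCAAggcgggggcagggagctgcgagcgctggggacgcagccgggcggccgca
FOSB, chr19:45467661-45467849, plus strand: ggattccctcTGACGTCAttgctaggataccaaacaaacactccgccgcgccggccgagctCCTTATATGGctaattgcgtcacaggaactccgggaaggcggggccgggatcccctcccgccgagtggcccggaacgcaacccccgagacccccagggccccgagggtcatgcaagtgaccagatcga
FOSL2, distal promoter region, chr2:28390602-28390702, plus strand: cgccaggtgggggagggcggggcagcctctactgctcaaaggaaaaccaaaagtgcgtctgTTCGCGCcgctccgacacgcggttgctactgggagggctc
JUNB, chr19:12789938-12790091, plus strand: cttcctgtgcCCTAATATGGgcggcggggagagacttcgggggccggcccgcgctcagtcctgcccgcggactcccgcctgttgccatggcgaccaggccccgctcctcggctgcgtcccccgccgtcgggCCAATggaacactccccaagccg
JUND, chr19:18281805-18282003, minus strand: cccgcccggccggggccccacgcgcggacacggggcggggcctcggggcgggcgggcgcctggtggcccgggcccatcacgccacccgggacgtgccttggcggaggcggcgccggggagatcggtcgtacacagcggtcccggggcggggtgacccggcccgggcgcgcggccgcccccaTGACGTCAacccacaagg
ATF3, distal promoter region, chr1:212607011-212607111, plus strand: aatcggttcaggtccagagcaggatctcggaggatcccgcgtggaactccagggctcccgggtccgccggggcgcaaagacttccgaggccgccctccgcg
The capitals in the windows of the distal FOS and FOSL2 regions are E2F patterns. In the proximal FOS window the CArG box came ahead of an E2F pattern on the other strand. The FOSB window carried a CRE and then a CArG box, the JUNB window a CArG box and then a CCAAT box, and the JUND window a CRE. The ATF3 window held none of these patterns, but an E2F pattern was centred at -68 bp from its summit, just outside the printed bases. Elements in these windows were not always under the peaks of both replicates, since the FOSB peak of replicate 2 covered neither its CRE nor its CArG box.

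After abemaciclib, Rb peaks lay at the promoters of all 8 AP-1 genes in both libraries. In DMSO, replicate 1 had a promoter peak at JUNB alone and replicate 2 had promoter peaks at JUNB and ATF3. Among all protein-coding genes, 7.97% had a promoter peak in DMSO replicate 1 and 12.6% in DMSO replicate 2, whereas 58.0% had one in abemaciclib replicate 1 and 54.0% in replicate 2. The IgG2a list had 589 peaks, of which 84 lay on the autosomes and the X chromosome. It had 0 in the promoters of these genes and 0 elsewhere nearest to them. With so few peaks, 0 would be usual at any 8 genes, so these counts say little about background there.

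Peaks of the 4 Rb libraries that shared at least 1 bp were merged into regions. Gained regions had peaks in the 2 abemaciclib libraries but none in DMSO, and shared regions had peaks in all 4 libraries. Of the 8 genes, 7 had a gained promoter region, namely FOS, FOSB, FOSL1, FOSL2, JUN, JUND and ATF3, beside 40.1% of all protein-coding genes. JUNB was the 1 gene with a shared promoter region, beside 6.49% of all. Any Rb promoter peak was found at 59.3% of protein-coding genes. When each list was cut to its strongest 1438 peaks, the length of the shortest, 0 of the 8 genes had a gained promoter region, as did 219 of all 19970 coding genes, 0 had a shared one, and the promoter peaks left were those of JUNB in the DMSO lists.

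**Figure D1:**
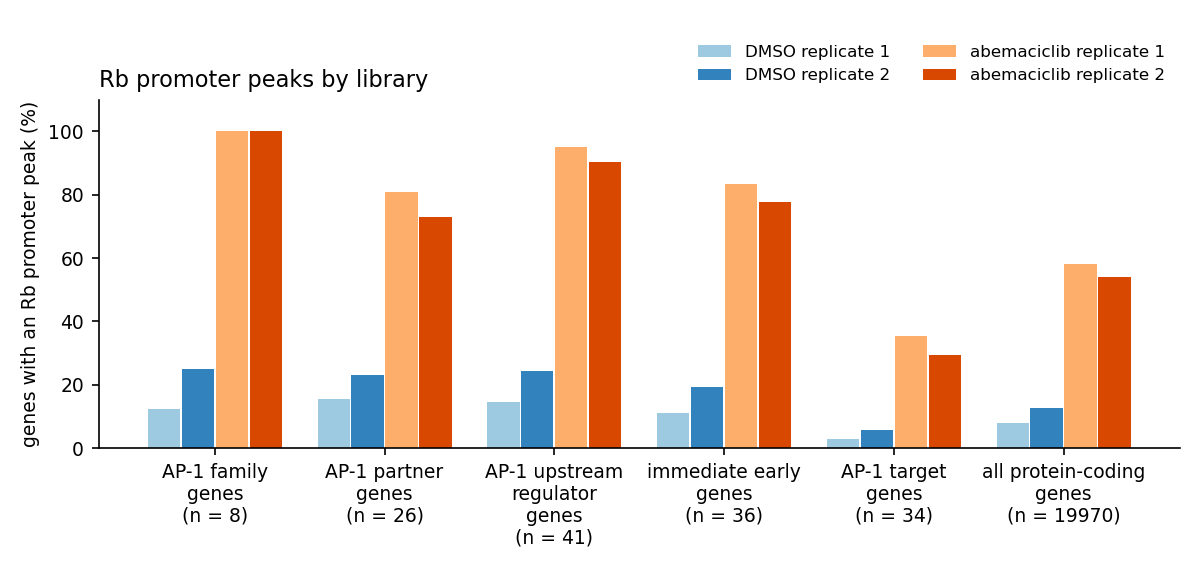
Share of genes with an Rb promoter peak (y axis, %) in each of the 4 Rb libraries (bars) for the AP-1 family, 4 lists of related genes and all 19970 protein-coding genes. The AP-1 family stood at 8 of 8 genes in both abemaciclib libraries and at 1 and 2 of 8 genes in the DMSO libraries.

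Several AP-1 genes carried more than 1 Rb region. The 8 genes had 14 separate promoter regions, of which 9 were gained, 1 was shared and 4 had another pattern. At least 2 promoter regions were found at 6 of the 8 genes, beside 8.69% of all protein-coding genes, and 3 genes, FOS, FOSL2 and ATF3, had at least 2 with a peak in both abemaciclib libraries, beside 4.77% of all. Genes with several annotated TSSs offer more windows, and FOS and ATF3 had 7 each, FOSB 8 and JUNB 1.

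**Figure D2:**
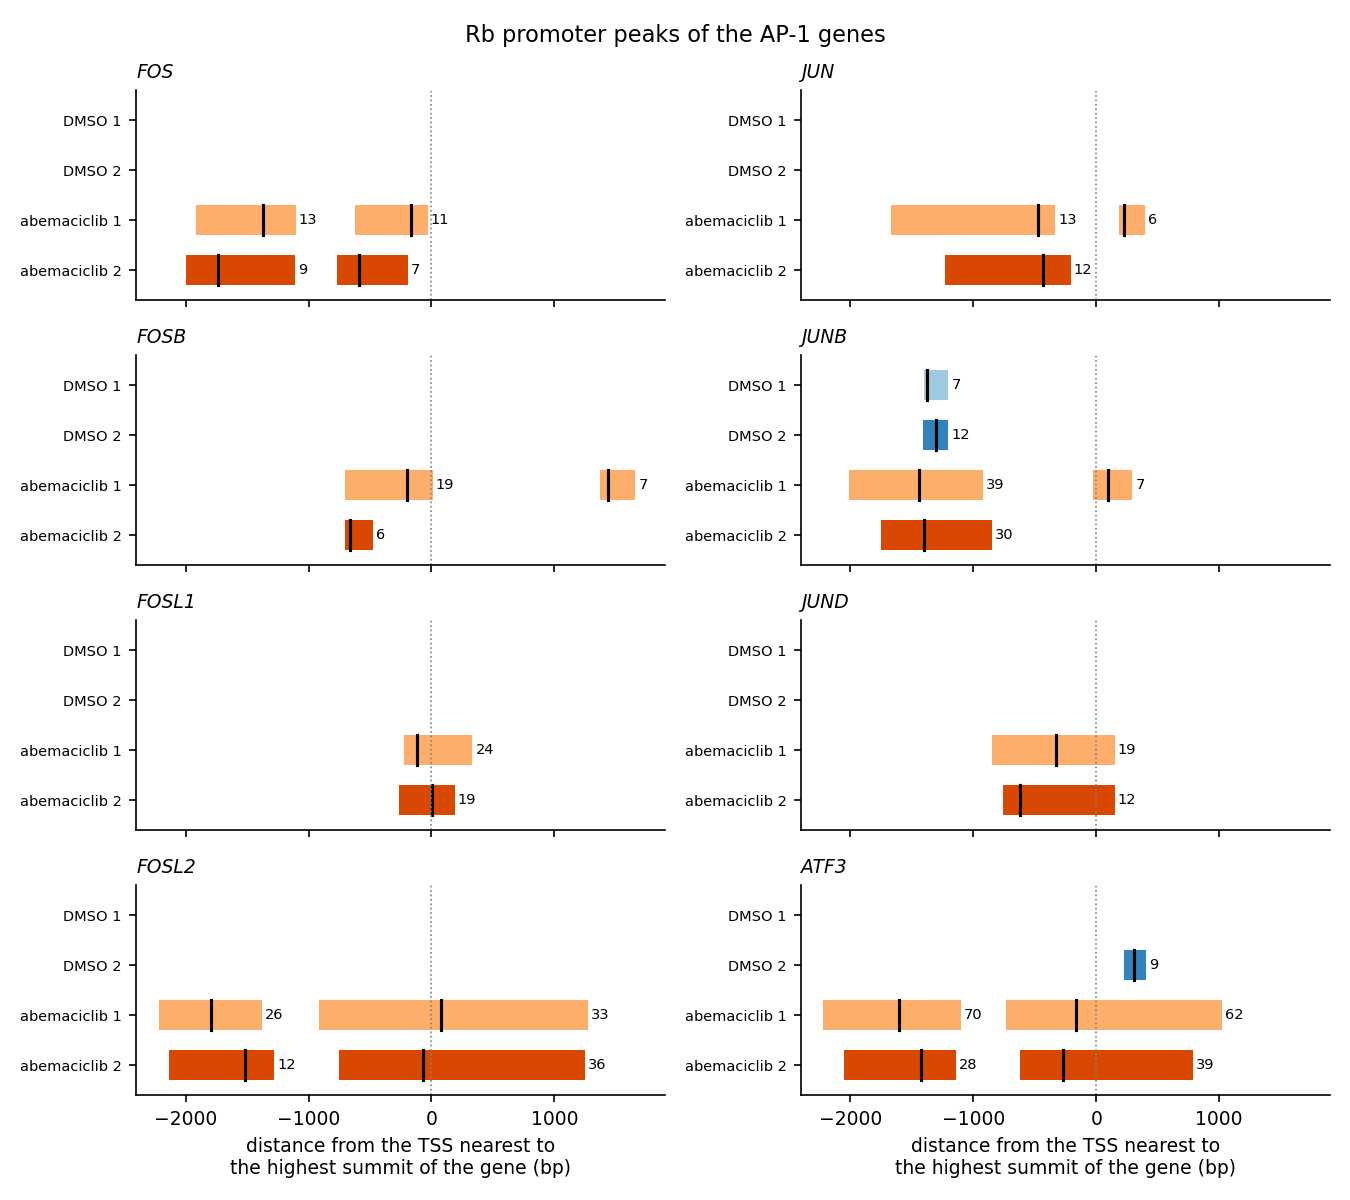
Promoter peaks of each AP-1 gene as bars along the distance from the TSS nearest to its highest summit (x axis, bp, upstream to the left), 1 row per Rb library, with a black line at the summit and the number of fragments piled up there beside the bar. DMSO peaks appear at JUNB in both replicates and at ATF3 in replicate 2, and the abemaciclib peaks of FOS, FOSL2 and ATF3 fall into 2 blocks each.

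The number of fragments piled up at a summit was recovered from the fold and the p-value of each peak. For scale, the lists implied a genome-average coverage of 0.649 and 0.677 fragments for the DMSO replicates and of 0.656 and 0.521 for the abemaciclib replicates. At that background the least pileup called was 6 fragments in both DMSO lists and 5 in both abemaciclib lists. A gene without a DMSO peak could therefore carry a few fragments, and its signal there was not detectable rather than absent. The lowest −log10 p was 5.10 and 4.76 in the DMSO lists but 3.74 and 3.81 in the abemaciclib lists, so the same q-value threshold admitted weaker peaks after abemaciclib. Among the member peaks, 3 of 14 promoter peaks of abemaciclib replicate 1 and 2 of 11 of replicate 2 held at most 7 fragments.

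FOS, the prototype partner of JUN and the classic immediate early gene, had a pair of gained promoter regions and the lowest mean coverage of the family. The distal region, chr14:75276829-75277722, piled up 13 fragments in abemaciclib replicate 1 (95% exact Poisson interval 6.92 to 22.2) and 9 in replicate 2 (4.12 to 17.1). The proximal region, chr14:75278056-75278795, had 11 (5.49 to 19.7) and 7 (2.81 to 14.4). Both regions lay upstream of the gene in intergenic sequence, and no DMSO library had a peak in either. The proximal peaks ranked 10424 of 13960 and 10278 of 12234 by p-value, or at 74.7% and 84.0% of their lists.

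The summits of the FOS peaks differed between replicates. In the proximal region the summit stood at -165 bp from the TSS in replicate 1 and at -585 bp in replicate 2, and in the distal region at -1373 and -1734 bp. The CArG box printed above was centred at -308 bp and the E2F pattern of the same window at -167 bp, so the CArG box lay between the summits of the replicates and the E2F pattern beside that of replicate 1. The peak of replicate 2 did not reach that E2F pattern. A further E2F pattern of the proximal region, centred at -423 bp, lay inside the peaks of both replicates and between their summits. With 7 to 13 fragments at a summit, these positions were set by few fragments.

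FOSB, a close relative of FOS that is also induced by growth factors, showed the widest gap between replicates as a ratio of fragments, although not in fragments or in SD, where ATF3 was wider. Its gained region, chr19:45467291-45468005, overlies the TSS and an intron of ERCC1, and piled up 19 fragments in abemaciclib replicate 1 (11.4 to 29.7) and 6 in replicate 2 (2.202 to 13.1). The replicate 1 peak was 715 bp wide with a summit at -196 bp, and the replicate 2 peak was 231 bp wide with a summit at -662 bp. The replicate 2 peak ranked 11842 of 12234 with a −log10 p of 4.76 (fold 3.93), and FOSB had no gained region at a q-value of at most 1e-05 or with 1 p-value threshold for all lists. A separate peak of 7 fragments in replicate 1, near an internal TSS, had no counterpart in replicate 2.

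FOSL1 encodes FRA1 and lies on the minus strand. Its single region, chr11:65900240-65900839, spanned the TSS, with 24 fragments in abemaciclib replicate 1 (15.4 to 35.7) and 19 in replicate 2 (11.4 to 29.7). These pileups were 36.6 and 36.5 times the genome average, the closest match between replicates among the 8 genes. The summits lay at -115 and +9 bp from the same TSS. The one TRE in the region was centred at +2 bp from another TSS of the gene, 302 bp downstream of the replicate 1 summit.

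FOSL2 encodes FRA2 and had the widest Rb region of the family. The TSS region, chr2:28391533-28393721, extended over 2189 bp and piled up 33 fragments in abemaciclib replicate 1 (22.7 to 46.3) and 36 in replicate 2 (25.2 to 49.8), with folds of 20.5 and 24.3. A distal region at chr2:28390228-28391169, in an intron of the antisense gene FOSL2-AS1, had 26 (16.98 to 38.1) and 12 (6.20 to 21.0) fragments. FOSL2 thus carried signal in both replicates at both regions, with 0 DMSO peaks. In replicate 1 the E2F pattern of the distal region was 14 bp from the summit.

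JUN, the founding member of its family, can activate its own promoter through CRE-like sites. Its gained region, chr1:58784255-58785720, piled up 13 fragments in abemaciclib replicate 1 (6.92 to 22.2) and 12 in replicate 2 (6.20 to 21.0), with summits at -471 and -434 bp. The region lay upstream of JUN, over an exon of the divergent noncoding gene LINC01135. The replicates matched in pileup, position and percentile rank, at 61.1% and 60.7% of their lists. A peak of 6 fragments within the transcribed start of JUN was present in replicate 1 only.

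The CRE-like sites of JUN were not under these peaks. In the 250 bases upstream of its RefSeq start, TTACCTCA began at -186 bp and TGACATCA at -67 bp. Of those 250 bases, 0 lay inside a peak of abemaciclib replicate 1 and 43 inside a peak of replicate 2, and neither site did in either replicate. The peaks of replicate 1 thus flanked the sites on both sides, at -471 and +224 bp. RefSeq promoter sequences matched 7 of the 8 genes, the exception being FOSL1.

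JUNB, a JUN protein that often restrains growth, was the family member with Rb peaks in every Rb library. The peaks merged into chr19:12789475-12790638, upstream of JUNB in an intron of HOOK2. The pileup was 7 (2.81 to 14.4) and 12 (6.20 to 21.0) fragments with DMSO, and 39 (27.7 to 53.3) and 30 (20.2 to 42.8) with abemaciclib, in replicates 1 and 2 respectively. Both abemaciclib values lay above both DMSO values. The summits stood within a short stretch, at -1378 and -1303 bp in DMSO and at -1445 and -1400 bp after abemaciclib, and the peaks widened from 198 and 207 bp to 1087 and 905 bp.

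Relative to the genome average of each library, JUNB coverage was 14.3 ± 4.91 in DMSO and 58.5 ± 1.36 after abemaciclib (mean ± SD, n = 2 each). The means stood in a ratio of 4.11, with 3.25 to 5.52 for pairs of single libraries. The exact permutation test, two-sided, gave p = 0.333, the smallest value that 2 libraries against 2 allow. Over the 996 regions shared by all 4 libraries at coding promoters the median ratio was 7.30 (interquartile range 5.95 to 8.84), so the value of JUNB lay below the lower quartile. By rank, JUNB stood at 1138 of 1438 and 759 of 2582 in the DMSO lists and at 3033 of 13960 and 2898 of 12234 in the abemaciclib lists. A second JUNB region, over the TSS, held 7 fragments in abemaciclib replicate 1 and no peak in the other libraries.

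JUND, the JUN protein most widely present in resting cells, had 1 gained promoter region, chr19:18281471-18282473. It piled up 19 fragments in abemaciclib replicate 1 (11.4 to 29.7) and 12 in replicate 2 (6.20 to 21.0), with summits at -331 and -623 bp. The peaks covered the whole of the 250 bases before the RefSeq start in both replicates, including the CRE printed above, which was centred at -196 bp. JUND had no DMSO peak.

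ATF3, a stress-induced factor that pairs with JUN proteins and often represses, had the highest Rb coverage of the family relative to the genome average. By fold over the local background, ATF3 was not the highest in abemaciclib replicate 2. Its peaks lay not at the upstream TSS, where 0 libraries had a peak within the 250 bases before it, but at internal TSSs within the gene. The distal of the internal regions, chr1:212606448-212607567 in an ATF3 intron, piled up 70 fragments in abemaciclib replicate 1 (54.6 to 88.4) and 28 in replicate 2 (18.6 to 40.5) and was gained. The proximal one, chr1:212607932-212609693, had 62 (47.5 to 79.5) and 39 (27.7 to 53.3) after abemaciclib and 9 (4.12 to 17.1) in DMSO replicate 2. The abemaciclib values were high in both replicates and higher in replicate 1 at both regions.

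The DMSO peak of ATF3 was weak. It was 183 bp wide and ranked 2462 of 2582, with a −log10 p of 5.06, and DMSO replicate 1 had no peak there. Without DMSO replicate 1 the region counted as shared, so that the number of family members with a shared region went from 1 to 2. With the window narrowed to 1000 bp upstream and 100 bp downstream, or with all windows of a gene pooled, ATF3 had no gained promoter region and the count of genes with one was 6.

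Ordered by mean coverage of the best covered promoter region with a peak in both abemaciclib libraries, ATF3 came first, at 84.7 ± 13.9 times the genome average (mean ± SD, n = 2 in each case). FOSL2 followed at 59.7 ± 13.3 and JUNB at 58.5 ± 1.36, and their ranges overlapped. FOSL1 stood below both at 36.5 ± 0.106. JUND at 26.0 ± 4.21, JUN at 21.4 ± 2.26, FOSB at 20.2 ± 12.4 and FOS at 18.6 ± 1.80 came last, and each of the last 3 overlapped the gene before it. The single values of ATF3 lay above those of FOSL2, but their SDs and the counting intervals of replicate 2 overlapped, so this step in the order was within the error. The values of FOSL1 lay below those of FOSL2 and JUNB and above those of the last 4 genes, with counting intervals that overlapped for several of these pairs. The order depended on the divisor. By fold over the local background, the proximal ATF3 region stood at 24.6 and 16.95 in abemaciclib replicates 1 and 2. The FOSL2 TSS region stood at 20.5 and 24.3 and JUNB at 24.2 and 20.4, so ATF3 was below both in replicate 2. JUND, at 8.022 and 7.975, fell below JUN, at 8.455 and 8.546.

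**Figure D3:**
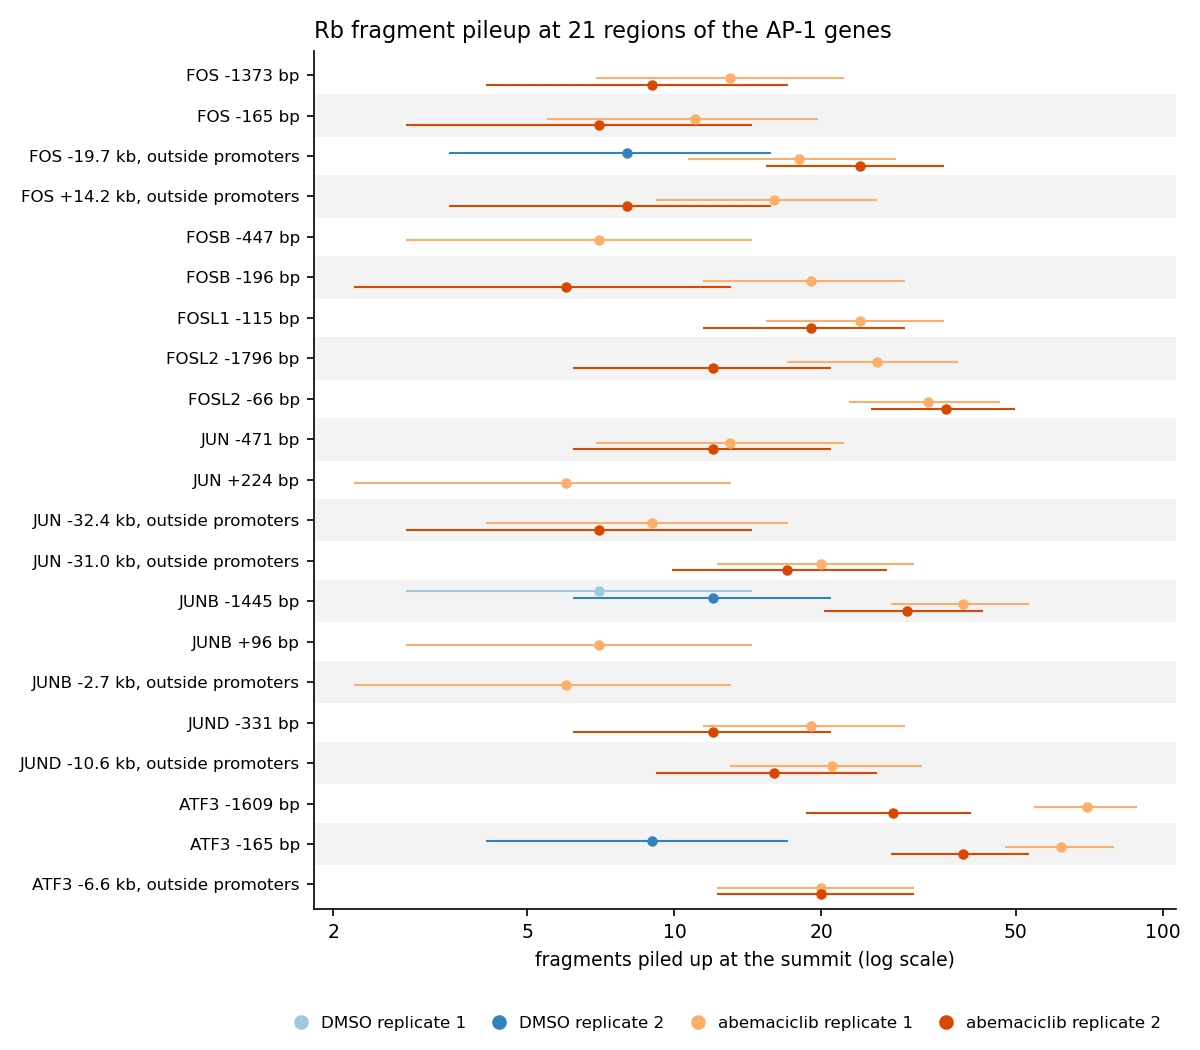
Fragments piled up at the summit (x axis, log scale) in each of the 21 Rb regions of the AP-1 genes, with 95% exact Poisson intervals for counting error, for each library that had a peak. Labels give the distance of the strongest summit from the nearest TSS of the gene, and blue points, the DMSO libraries, occur at JUNB, at the proximal ATF3 region and at the FOS region 19.7 kb upstream.

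The gained AP-1 regions spread over the range of coverage of gained promoter regions. Over the 7322 gained regions at coding promoters, coverage had a median of 33.6 times the genome average in abemaciclib replicate 1 and 30.7 in replicate 2. Of the 9 gained AP-1 regions, 5 lay below the median in both replicates, 3 above it in both and 1 above it in replicate 1 alone, and FOS supplied 2 of the 5. The distal ATF3 region exceeded 97.6% and 79.8% of gained regions, and the TSS region of FOSL2 72.9% and 89.5%. The proximal FOS region exceeded 10.9% and 3.07%, and the FOSB region 38.8% and 0.560%.

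**Figure D4:**
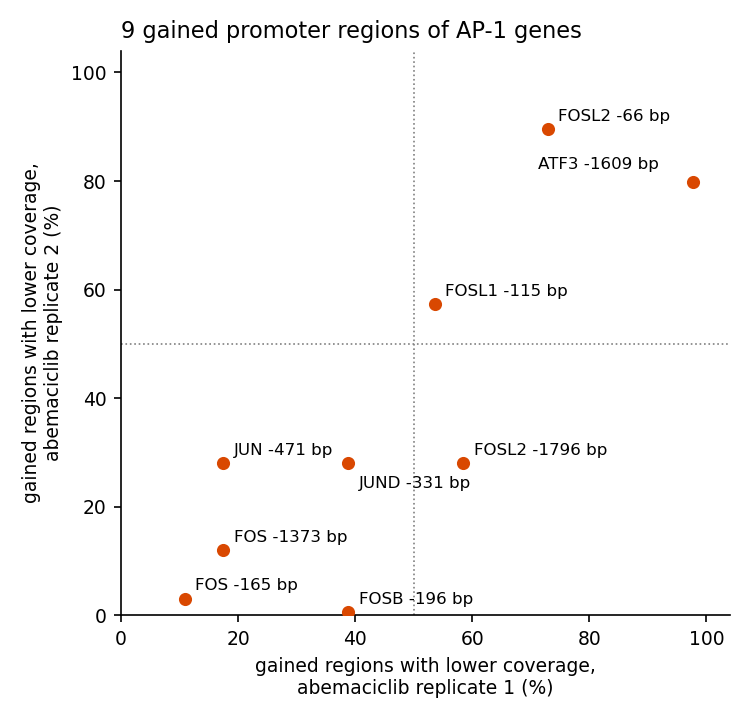
Share of the 7322 gained coding-promoter regions with lower coverage than each of the 9 gained AP-1 regions, in abemaciclib replicate 1 (x axis, %) and replicate 2 (y axis, %), with dotted lines at the median. The regions of ATF3, FOSL1 and the FOSL2 TSS lie above the median in both, and those of FOS, FOSB, JUN and JUND below it in both.

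Most promoter summits of the AP-1 genes sat upstream of the nearest TSS of their own gene, which for ATF3 was an internal one. In abemaciclib replicate 1, 11 of 14 promoter summits were upstream, with a median position of -264 bp, and in replicate 2, 10 of 11, with a median of -623 bp. Of all summits within coding promoter windows, 48.1% and 48.9% were upstream, with medians of 3 and 1 bp. The latter were measured from the nearest TSS of any coding gene, so the measures are not quite alike. Summits within 1 gene share their locus and are not independent.

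Other Rb regions nearest to an AP-1 gene numbered 7, at 5 of the 8 genes. Gained regions of this kind numbered 5, at FOS, JUN, JUND and ATF3, that is 4 genes, beside 5.19% of protein-coding genes with a gained region outside their own promoters and 11.5% with any. JUN had a pair of them in an intron of LINC01135, at 31.0 and 32.4 kb upstream. The nearer, chr1:58814227-58815850, piled up 20 (12.2 to 30.9) and 17 (9.90 to 27.2) fragments in abemaciclib replicates 1 and 2, more than the JUN promoter in each replicate, although the intervals overlapped. It overlapped promoters of the noncoding genes LINC01135 and ENSG00000272226, so it was distal only with respect to coding genes.

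FOS had an Rb region 19.7 kb upstream, chr14:75258852-75259376, that already had a peak of 8 fragments (3.45 to 15.8) in DMSO replicate 2. After abemaciclib it held 18 (10.7 to 28.5) and 24 (15.4 to 35.7) fragments, above the 13 and 9 of the better covered FOS promoter region, with overlapping intervals in replicate 1 and, narrowly, in replicate 2. Another, 14.2 kb from the nearest TSS of FOS on the downstream side, was gained with 16 and 8 fragments and lay on an exon of LINC01220. It held a CArG box as well, under the peak of abemaciclib replicate 1 but not that of replicate 2. JUND had a gained intergenic region 10.65 kb upstream with 21 and 16 fragments, and ATF3 had one 6.60 kb before its upstream TSS with 20 and 20, where the upstream promoter itself had no peak. The ATF3 region overlapped a promoter of ENSG00000288007, which is not protein-coding. Both FOS regions also overlapped promoters of such genes, ENSG00000258820 and ENSG00000289340 for the upstream one and DPPA5P4 and LINC01220 for the other. The last of the 7 regions, 2.73 kb upstream of JUNB, held 6 fragments in abemaciclib replicate 1 alone.

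Motifs were counted on both strands in the 700 bp around the strongest summit of each of 11612 merged regions at coding promoters, as a description of letters and not of bound sites. A CArG box lay in 3 of the 14 AP-1 windows, at FOS, FOSB and JUNB, and in 1.94% of all windows. A CRE lay in 2, at FOSB and JUND, and in 3.29% of all, and a TRE in 1, at FOSL1, and in 5.30% of all. The TRE is the site that AP-1 itself binds, and the FOSL2 and JUNB regions each held 1 farther from the summit. E2F patterns lay in 7 of 14 AP-1 windows and in 45.4% of all, the CCAAT box in 8 and in 48.9%, and the GC box GGGCGG in 14 and in 90.9%.

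At the summits themselves the E2F count depended on the replicate. In 200-bp windows an E2F pattern lay at 5 of 14 AP-1 summits in abemaciclib replicate 1, at FOS, FOSL2 and ATF3, beside 17.5% of all promoter summits, and at 0 of 11 in replicate 2, beside 17.9%. In replicate 1 the pattern was centred -2 bp and 0 bp from the summits of the proximal and distal FOS regions. The same regions had their replicate 2 summits farther upstream, as given above. In the 200-bp windows a CArG box lay at 2 of 14 AP-1 summits in replicate 1, at FOSB and JUNB, and at 0 of 11 in replicate 2. The shares of all promoter summits with one were 0.572% and 0.530%. A CRE lay at 0 of 14 and 0 of 11 AP-1 summits, beside 0.769% and 0.814% of all. Base composition of the AP-1 summit windows, with a median GC content of 69.0% and 67.5% in the 2 replicates, was close to that of all promoter summits, 69.0% in each.

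Genes of the same pathway were described from 4 lists. Of 26 genes for partners in the basic leucine zipper family, 13 had a gained promoter region, 4 a shared one and 21 any Rb promoter peak, against the backgrounds of 40.1%, 6.49% and 59.3% given above. The shared ones were led by NFE2L1, with 25 and 29 fragments in DMSO and 136 and 128 after abemaciclib, ATF2, with 24 and 30 and then 119 and 85, and ATF7, with 12 and 10 and then 120 and 77. ATF2 and ATF7 encode dimer partners of JUN, and their signal exceeded that of every AP-1 family gene in both abemaciclib libraries. The gained ones were led by NFE2L2, the regulator of the antioxidant response, with 38 and 36 fragments, ATF1 with 29 and 29 and BACH1 with 25 and 32.

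Of 41 genes upstream of AP-1, the kinases, phosphatases and factors that control its synthesis and activity, 26 had a gained promoter region, 5 a shared one and 39 any peak. Shared regions were led by RPS6KA5, a kinase that phosphorylates CREB and histone H3, whose region also served DGLUCY and held 21 and 42 fragments in DMSO and 244 and 181 after abemaciclib. COP1, which targets JUN for degradation, held 10 and 14 and then 128 and 105. Gained regions were led by MAP2K7, the kinase that activates JNK, with 70 and 41 fragments, and by the phosphatase genes DUSP2 with 45 and 38 and DUSP4 with 32 and 42.

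Of 36 other immediate early genes, 24 had a gained promoter region, 4 a shared one and 30 any peak. EGR1 went from 12 and 14 fragments in DMSO to 98 and 90, BTG1 from 15 and 22 to 102 and 65, and MYC from 17 and 25 to 87 and 76. Gained regions were led by BTG2 with 59 and 50 fragments, IER2, whose region also served STX10, with 44 and 37, and KLF10 with 46 and 34. Of 34 matched AP-1 target genes of 35 listed, 8 had a gained promoter region, 0 a shared one and 12 any peak, led by PLAUR with 35 and 30 fragments, AREG with 35 and 29 and HBEGF with 25 and 18. Target genes were the 1 list with fewer promoter peaks than the background, and 22 of them had none in any Rb library.

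Other coding genes with a like standing were named by the mean absolute difference in percentile rank of the best promoter peak over the 4 Rb libraries. A library with no peak counted as the last percentile. FOS was matched by B3GALT1 and DSP, and JUN by PELI1 and KMT2C, with a difference of 0 percentage points in each case, since weak peaks take few distinct p-values. Among genes at the same difference, those named came first in annotation order, so the choice among ties is arbitrary. FOSB was nearest to B3GNT9 and GRHL2, at 0.273 and 0.432 points, and JUND to PHF20 and CXCR4, at 0.0899 and 0.142 points. FOSL1 was nearest to ENSG00000258465 and PEX19, at 0.0706 points each, and FOSL2 to SAP30 and CEP83, at 0.217 and 0.223 points. JUNB and ATF3 had no such close match, with MTF1 and GET3 at 2.26 and 4.06 points from JUNB and CFAP20 and MSL2 at 1.12 and 1.25 points from ATF3. Both genes had a DMSO promoter peak. The other members and their named matches had none, so their differences in the DMSO libraries were 0 by that rule.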

How the data were processed

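Rb CUT&RUN was analysed from 5 deposited peak lists, 2 Rb libraries for each of 2 treatments and 1 IgG2a library. According to the methods, the authors trimmed, aligned and filtered paired-end reads on GRCh38 and called peaks per library with IgG as control. The submitters' processing notes name Bowtie2 2.3.4.1, MACS2 2.2.7.1, deepTools 3.5.0 and DiffBind. The deposited columns used were a fold ratio (pileup plus 1 over local background plus 1), the −log10 p-value and the −log10 q-value; the score that the authors' peak caller also deposited was not used. Samples were grouped by their titles. The p-values describe single peaks, not replicates.

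The whole-number pileup that satisfied both fold and p-value (tolerance 0.002) was solved for 99.8% to 100.0% of the peaks in each Rb library and divided by the lowest recurrent background, taken as the genome average, which is an assumption. The solver was checked on simulated peaks. Lists hold no counts over common regions, so no count model was fitted, and intervals cover counting error only. TSSs came from GENCODE version 44. Ranks are by p-value within a list.

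The family and the related lists were chosen with earlier results of these data known. All 8 family genes were named; from each other list, the 3 genes with the best mean rank after abemaciclib among gained and among shared promoters; and for likeness, the 2 nearest genes. A gene that this rule named is not reported here. Alternatives covered the q-value, the window, the TSS set, summits, IgG2a overlap, equal list sizes, gene-level patterns, distances and each library left out. Python 3.11.15, pandas 2.3.3, numpy 2.4.6, scipy 1.17.1 and pysam were used.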

Additional observations from a re-analysis of the deposited data

How the results depend on the processing

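Of 138 alternative values over 12 results, 124 stayed within 1.5 times the reported count or, for JUNB, within its range over libraries. Some of the 124 could not have moved. The range for JUNB spans pairs of single libraries, so its ratios with a library left out lay within it by arithmetic. The IgG2a list had 0 peaks at the family genes, so the setting without IgG2a overlap could not change the family counts. With equal numbers of peaks per list the counts became 0 for gained, 0 for shared and 1 for any Rb promoter peak in the AP-1 family, 219 for coding genes with a gained promoter region, 1 for upstream regulators, 0 for partners, immediate early genes and target genes, and 0 for gained and for all regions outside promoters. With the q-value limit lowered to 1e-05 the family had 0 shared promoter regions. With the window from 1000 bp upstream to 100 bp downstream, 8 gained and 11 regions in all counted as outside promoters. Leaving out each Rb library in turn gave 7 to 8 family genes with a gained promoter region, 1 to 2 with a shared one (2 without DMSO replicate 1) and 8 with any in each case; 8274 to 9212 coding genes, 12 to 15 partners, 26 to 31 upstream regulators, 23 to 26 immediate early genes and 8 to 10 target genes with a gained one; and 5 to 6 gained and 6 to 7 regions in all outside promoters. Each omission left fewer libraries to meet the definitions of gained and shared, so these counts are no test of stability. Without abemaciclib replicate 2, JUNB counted as gained through the region over its TSS, which had a peak in abemaciclib replicate 1 only. The JUNB ratio ranged from 3.30 to 5.43 over libraries left out. That setting, a single p-value threshold, the fold as measure of JUNB (3.57) and other motif windows (4 or 7 of 14 summits with an E2F pattern) were chosen after seeing the data. Some changes follow by construction. Shorter lists hold fewer peaks, a library left out loosens the definitions, and a narrower window moves promoter regions into the count outside promoters. The cause of other changes was not tested. No paired analysis was possible because no model was fitted: most comparisons of treatments are counts of called regions, and the coverage of JUNB gave 2 values per treatment. Libraries of the same number gave JUNB ratios of 5.52 (replicate 1) and 3.25 (replicate 2).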
